A study of Homo sapiens with 8 samples.

Results

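The human HOX genes lie in 4 clusters, HOXA, HOXB, HOXC and HOXD, and encode homeodomain transcription factors that give cells their position along the body axis. Members with the same number in different clusters are paralogs. Low-numbered genes act mainly in the hindbrain and neck, and high-numbered genes in the lower trunk, limbs and urogenital tract. In adult tissue and in tumour lines a subset stays on, under the opposing control of Polycomb and MLL chromatin complexes, and HOX proteins bind DNA together with partners of the TALE class.

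Members were all genes whose annotated symbol is HOXA, HOXB, HOXC or HOXD followed by a number, with dim features included. Of 39 such symbols in the current gene table, 22 had a gene-level row of their own, out of 22011 gene-level rows. At the exon level 36 genes had at least 1 probeset annotated to them alone, 296 probesets out of 287329. The gene-level rows comprised 1 HOXA, 8 HOXB, 6 HOXC and 7 HOXD genes, and the probesets 88 for HOXA, 85 for HOXB, 45 for HOXC and 78 for HOXD. Within the HOXA cluster only HOXA2 had a gene-level row of its own, so that HOXA is described mainly from its probesets. HOXB4, HOXB7, HOXC4, HOXC5, HOXC6, HOXD1 and HOXD4 were named at the gene level only on rows shared with other genes. HOXD3 had a row of its own and was also named on a shared row. The 5 shared rows were not used. HOXC5 and HOXC6 were also read only by shared probesets.

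The cells were MDA-MB-231, a human breast cancer line without oestrogen receptor, carrying a stably integrated lentiviral short hairpin RNA. One group carried a hairpin against the integrin α3 subunit (alpha3 knockdown) and the other a control hairpin (control), so both had been transduced. Each group had 2 biological replicates, and 1 array (Affymetrix Human Exon 1.0 ST) per replicate was summarised at the gene level and again at the exon level, which gave 8 samples from 4 arrays. Whether the transduced cells were clones or pools is not given in the sources used here, and the labels name a single α3-targeting hairpin group and no rescue.

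Every intensity below is a linear PLIER summary of a feature's probes. Probes differ in affinity, so the levels of different genes were not tested against each other. A feature was called dim when it lay in the lower 40% of features by mean intensity over the 4 arrays, which put the dim limit at 108 for genes and 99.4 for probesets. The targeted gene ITGA3 measured 619 and 644 in knockdown arrays, against 3480 and 3529 in control arrays (adjusted p = 8.70e-05, limma). The mesenchymal marker gene VIM measured 4347 and 4534 in knockdown arrays and 4761 and 5241 in control arrays, while the oestrogen receptor gene ESR1 stayed below the dim limit at 73.6 and 73.6 in knockdown arrays and 76.3 and 78.9 in control arrays. The luminal genes CDH1 and KRT18 were higher in knockdown. Of 8 luminal markers 6 were above the limit in knockdown and 4 in control arrays. The summed intensity of the 8 was 11012 and 10054 in knockdown arrays, against 9197 and 8997 in control arrays. Most of this sum came from KRT8 and KRT18. KRT8 measured 4504 and 3899 in knockdown arrays, against 4086 and 4069 in control arrays, and did not pass (adjusted p = 0.811, limma). The E-cadherin gene CDH1 measured 177 and 168 in knockdown arrays, against 25.4 and 28.8 in control arrays, and passed in the limma fit without the filter (log2 difference 2.13, adjusted p = 0.00435), its mean over the 4 arrays being below the limit. The keratin gene KRT18 measured 5829 and 5466 in knockdown arrays, against 4617 and 4422 in control arrays (adjusted p = 0.0365, limma), and 0.0642 without the filter. Of 6 mesenchymal markers 5 were above the limit in both groups. The summed intensity of the 6 was 17936 and 17606 in knockdown arrays, against 21012 and 21375 in control arrays. Among them AXL was called lower, at 2914 and 2908 in knockdown arrays, against 4130 and 4217 in control arrays (adjusted p = 0.00685, limma). VIM, CD44, MSN and CAV1 did not pass, and SPARC was dim and not tested. The part of these markers in the HOX values was not tested. The leukocyte gene PTPRC lay at 27.2 and 25.1 in knockdown arrays, against 27.0 and 27.4 in control arrays. Of the 4 leukocyte markers with a row, however, 2 had a mean above the limit in knockdown and 1 in control arrays. CD14 was above it in all 4 arrays, at 205 and 250 in knockdown and 230 and 211 in control arrays. CD3E measured 110 and 144 in knockdown arrays, against 114 and 93.5 in control arrays. Over all gene-level features the median log2 difference, knockdown minus control, was -0.04, and it was 0.02 after quantile normalization and 0.05 after centring each array on its median. Of 13207 features tested, 793 were higher and 2033 lower in knockdown, but 1353 and 1701 after quantile normalization and 1494 and 1529 after centring.

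RefSeq promoter sequences (GRCh38.p14) were at hand for 20 HOX symbols, among which HOXC4 and HOXC5 had the same window. They are shown for the brightest gene-level row of HOXA and of HOXD and for the gene with the widest gene-level difference. HOXB9 and HOXC12, the brightest rows of HOXB and HOXC, were not among these 20 symbols. Each window holds the 250 bases before the annotated start, 5′ to 3′, with CG dinucleotides in capitals. HOXA2 lies at chr7:27102684-27102933, minus strand, HOXD13 at chr2:176092471-176092720, plus strand and HOXD3 at chr2:176157057-176157306, plus strand.
HOXA2 promoter: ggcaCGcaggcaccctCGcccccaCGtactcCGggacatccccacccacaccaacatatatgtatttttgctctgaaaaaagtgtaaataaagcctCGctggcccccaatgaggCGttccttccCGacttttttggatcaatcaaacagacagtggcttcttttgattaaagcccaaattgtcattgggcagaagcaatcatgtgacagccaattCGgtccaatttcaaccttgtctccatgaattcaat
HOXD13 promoter: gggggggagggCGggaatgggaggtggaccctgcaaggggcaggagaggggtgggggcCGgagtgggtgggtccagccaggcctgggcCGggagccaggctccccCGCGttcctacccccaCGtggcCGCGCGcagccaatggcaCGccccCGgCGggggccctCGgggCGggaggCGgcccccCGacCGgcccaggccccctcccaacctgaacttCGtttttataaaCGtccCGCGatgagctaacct
HOXD3 promoter: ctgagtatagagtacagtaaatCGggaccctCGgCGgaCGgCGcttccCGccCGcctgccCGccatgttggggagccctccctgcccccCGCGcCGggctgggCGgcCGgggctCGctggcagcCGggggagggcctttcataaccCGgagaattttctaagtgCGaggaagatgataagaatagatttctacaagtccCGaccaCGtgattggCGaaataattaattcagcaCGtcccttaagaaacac
The HOXD13 window had a GC content of 74.0% and 21 CG dinucleotides, the HOXD3 window 59.2% and 21, and the HOXA2 window 47.2% and 8. A window was counted as CpG-rich where GC content was over 50% and the observed over expected CpG ratio over 0.6. That held for 15 of the 20 HOX windows, or 75%, against 44.8% of all 35116 promoters of the same length. The letters TATAAA, searched on both strands, were found in 4 HOX windows (20%, against 10.7% of all promoters), among them that of HOXD13, and TGATNNAT in 3 (15%, against 6.47%), among them that of HOXA2. AGGTCA was in none of the 20 windows and in 12.1% of all promoters. These matches describe the letters of the windows only.

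Most HOX genes were dim in both groups. At the gene level 7 of 22 HOX genes had a mean above the dim limit in knockdown arrays and 7 of 22 in control arrays, or 31.8% in both, while 59.2% of all features did so in knockdown arrays and 60.4% in control arrays. The HOXD cluster had 3 of 7 genes above the limit in knockdown and 4 of 7 in control arrays. HOXB had 3 of 8 in knockdown and 2 of 8 in control arrays, HOXC had 1 of 6 in both groups, and HOXA2 was below the limit in both. The genes that crossed the limit lay next to it. HOXD8 measured 118 and 82.7 in knockdown arrays, against 122 and 118 in control arrays, and HOXB3 measured 115 and 107 in knockdown arrays, against 96.6 and 106 in control arrays.

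Posterior genes, those numbered 9 to 13, made up 12 of the 22 rows. Of these, 5 of 12 were above the limit in knockdown and 5 of 12 in control arrays, or 41.7% in both. Among anterior genes, numbered 1 to 4, 2 of 5 (40%) were above it in knockdown and 1 of 5 (20%) in control arrays. Among central genes, numbered 5 to 8, these numbers were 0 of 5 in knockdown and 1 of 5 in control arrays. The posterior and anterior shares were thus close in knockdown arrays, and the classes were not tested against each other. Over probesets, 36.7% of posterior, 33.8% of central and 38.8% of anterior probesets were above the exon-level limit in knockdown arrays. In control arrays the shares were 35.9%, 29.2% and 37.9%.

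By the share above the limit, exon-level probesets gave the same order of HOXD and HOXB over HOXC as the gene-level rows. This share placed HOXA between HOXB and HOXC. Above the limit were 47.4% of HOXD probesets in knockdown and 47.4% in control arrays, 41.2% of HOXB probesets in knockdown and 40% in control arrays, 30.7% of HOXA probesets in knockdown and 27.3% in control arrays, and 22.2% of HOXC probesets in knockdown and 20.0% in control arrays. For all probesets the shares were 59.3% in knockdown and 60.3% in control arrays. Single arrays kept this order of clusters by share. HOXD ranged from 43.6% to 48.7% over the knockdown arrays and from 46.2% to 50% over the control arrays, and HOXB from 38.8% to 41.2% over the knockdown arrays and from 40% to 41.2% over the control arrays. Probesets of 1 gene share their RNA, and the shares were not tested between clusters.

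**Figure D1:**
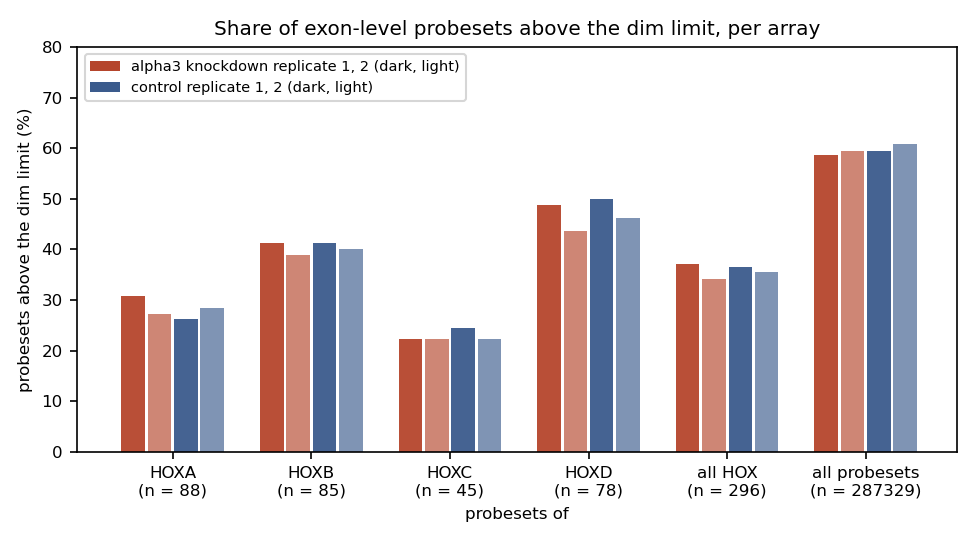
Share of exon-level probesets above the dim limit (y axis, percent) for each HOX cluster, all HOX probesets and all probesets (x axis), with 1 bar per array. HOXD has the highest and HOXC the lowest share of the 4 clusters in every array, and all HOX clusters lie below the share of all probesets.

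HOXC12, a posterior gene, had the brightest gene-level row of its cluster. It measured 689 and 744 in knockdown arrays, against 548 and 613 in control arrays. Both knockdown arrays lay above both controls, and the log2 difference was 0.30 ± 0.094 (SE, 95% interval 0.07 to 0.53) on the log2(intensity + 16) scale used for every difference given here. It did not pass the threshold of 0.05 (adjusted p = 0.0706, limma with Benjamini-Hochberg adjustment over all features tested). After quantile normalization (adjusted p = 0.0185) or centring (adjusted p = 0.0185) it did. The row rested on unlike probesets. Of the 7 HOXC12 probesets, 1 (3416271) measured 16554 and 17546 in knockdown arrays and 17615 and 18547 in control arrays, with a log2 difference of -0.08, while 3 of 7 lay above the limit in either group and differences ranged from -0.58 to 0.56.

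HOXB9, which in mice takes part in shaping the rib cage and the mammary gland, was the brightest HOXB row. It measured 340 and 362 in knockdown arrays, against 384 and 386 in control arrays, and the groups did not overlap. The log2 difference was -0.13 ± 0.088 (SE, 95% interval -0.34 to 0.09, adjusted p = 0.353, limma). Most of its probesets were bright, with 10 of 13 above the limit in knockdown and 12 of 13 in control arrays, and they pointed both ways, 3 with both knockdown arrays above and 4 with both below the controls, where 17.7% of all probesets lay above and 27.5% below.

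HOXD13, which patterns the digits, was the brightest HOXD row. Its intensity was 433 and 340 in knockdown arrays and 447 and 398 in control arrays, with overlapping groups and a log2 difference of -0.13 ± 0.13 (SE, 95% interval -0.46 to 0.20, adjusted p = 0.547, limma). One of its 4 probesets (2516784) measured 495 and 579 in knockdown arrays, against 896 and 759 in control arrays, which did not pass either (log2 difference -0.61 ± 0.17 (SE), adjusted p = 0.0809, limma). HOXA2, a hindbrain gene, measured 42.0 and 32.9 in knockdown arrays, against 34.8 and 45.4 in control arrays. The groups overlapped, and as a dim feature it was not tested.

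**Figure D2:**
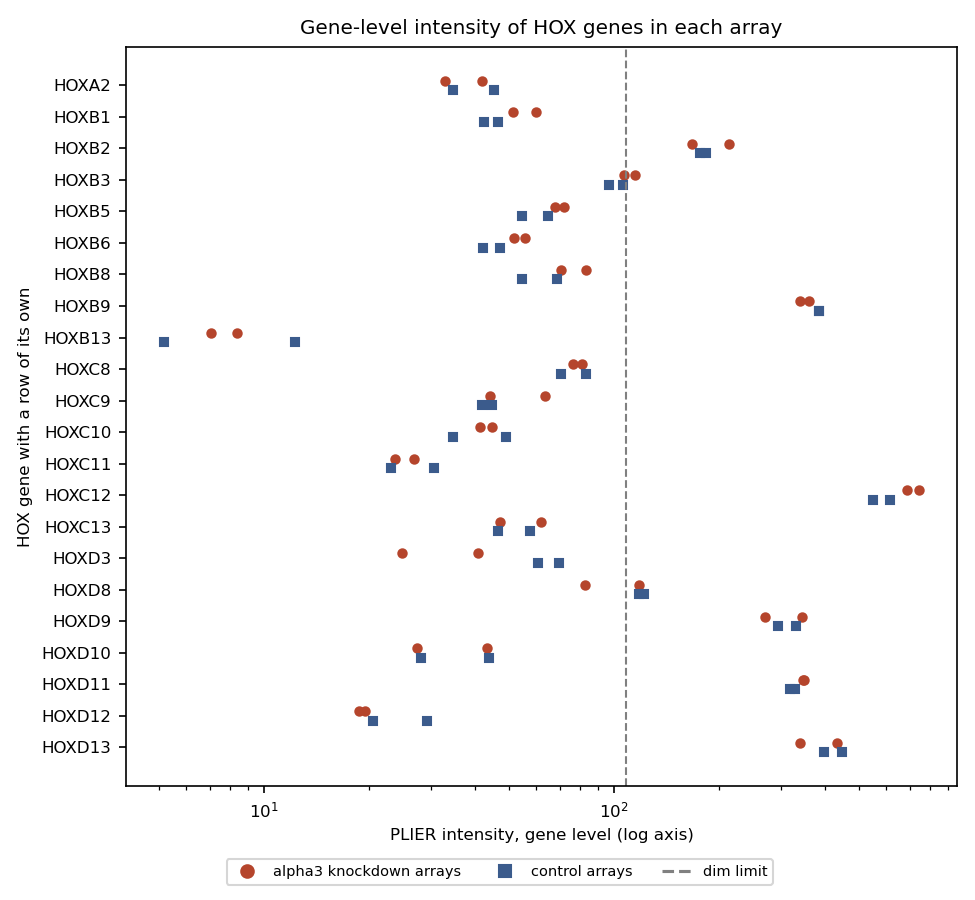
Gene-level PLIER intensity (log x axis) of the 22 HOX genes with a row of their own (y axis, by cluster and number), with a circle for each knockdown array and a square for each control array. The dashed line is the dim limit of 108, and HOXC12, HOXB9, HOXD13, HOXD11, HOXD9 and HOXB2 lie to its right in all 4 arrays.

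The comparison of knockdown with control asked which HOX transcripts differ when the α3 hairpin is present. No HOX gene passed at the gene level. Of the 22 rows, 7 were bright enough to be tested, and limma called 0 higher and 0 lower (adjusted p under 0.05), where 21.4% of all tested features were called, 6% higher and 15.4% lower. At an unadjusted p under 0.05 the count was 1 of 7 (HOXC12), against 35.9% of all tested features. Without the filter on dim features all 22 were tested and again 0 passed, where 9.07% of all features did, and 2 of 22 had an unadjusted p under 0.05, against 25.2%. Adjusted p lay between 0.0706 and 0.907 for the 7 tested genes. A p above the threshold does not show that a gene was unchanged, and a lower level in bulk RNA cannot be told apart from fewer cells with the transcript.

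The other tested genes had differences from -0.24 to 0.10 on the log2 scale. HOXB2, active in the hindbrain, measured 167 and 213 in knockdown arrays, against 184 and 176 in control arrays (log2 difference 0.06, 95% interval -0.27 to 0.40). HOXD11, a limb and kidney gene in mice, measured 348 and 346 in knockdown arrays, against 328 and 319 in control arrays, with both knockdown arrays above the controls (0.10, -0.12 to 0.31). HOXD9 measured 345 and 271 in knockdown arrays, against 332 and 294 in control arrays (-0.03, -0.36 to 0.31). The HOXD8 groups overlapped only by the first knockdown array (-0.24, -0.66 to 0.18).

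The widest gene-level difference among HOX rows was in HOXD3, a gene of the neck region that also promotes integrin expression in endothelial cells. It was chosen for mention after its values were seen. Only the row of its own was read, and not the shared row that also names HOXD3. HOXD3 measured 24.7 and 40.8 in knockdown arrays, against 69.4 and 60.5 in control arrays, so both knockdown arrays were below both controls and all 4 were dim. The log2 difference was -0.75 ± 0.20 (SE), which did not pass in the limma fit without the filter (adjusted p = 0.0916). Of its 8 probesets 0 had both knockdown arrays above the controls and 4 had both below, against 17.7% above and 27.5% below among all probesets. Those 4 were dim, and the 3 tested probesets overlapped between groups. The brightest of them (2516957) measured 1054 and 1221 in knockdown arrays, against 1250 and 941 in control arrays.

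Counts of non-overlapping genes are given by cluster as a description. In HOXB, 5 of 8 genes had both knockdown arrays above both controls and 1 (HOXB9) had both below, against 19.1% above and 33% below among all gene-level features. These 5 were dim genes. HOXB8 measured 83.1 and 70.6 in knockdown arrays, against 68.6 and 54.5 in control arrays. HOXB1 measured 51.4 and 59.8 in knockdown arrays, against 46.5 and 42.4 in control arrays. HOXB6 measured 55.8 and 51.9 in knockdown arrays, against 47.2 and 42.2 in control arrays, and HOXB5 measured 72.1 and 67.6 in knockdown arrays, against 64.8 and 54.7 in control arrays. HOXB3 is the fifth. The log2 differences of these 5 genes lay between 0.11 and 0.26, and none passed without the filter (smallest adjusted p in HOXB 0.369, limma). The probesets did not all point the same way. By the median of each gene's probesets, the difference was 0.58 for HOXB8 and 0.02 for HOXB6. It was -0.47 for HOXB5, -0.03 for HOXB1 and -0.02 for HOXB3.

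The median log2 difference was 0.15 for HOXB, 0.05 for HOXC, -0.13 for HOXD and -0.07 for HOXA2 alone, beside -0.04 for all features. After quantile normalization these were 0.22, 0.10, -0.03 and -0.02, beside 0.02, and after centring 0.24, 0.14, -0.04 and 0.02, beside 0.05. The sign of HOXA2 therefore depended on the scaling. In HOXD, 1 of 7 genes (HOXD11) had both knockdown arrays above and 2 (HOXD3 and HOXD12) had both below the controls. In HOXC, 1 of 6 (HOXC12) had both above and 0 had both below.

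The remaining dim rows overlapped between groups, apart from HOXD12 at 18.7 and 19.4 in knockdown arrays, against 20.4 and 29.3 in control arrays. HOXC8 measured 81.1 and 76.6 in knockdown arrays and 83.1 and 70.5 in control arrays, HOXC13 47.4 and 61.9 in knockdown arrays and 57.7 and 46.6 in control arrays. HOXC9, HOXC10, HOXC11 and HOXD10 ranged from 23.7 to 63.5 in knockdown arrays and from 23.1 to 49.0 in control arrays. The dimmest was HOXB13, a prostate and hindgut gene, at 7.07 and 8.37 in knockdown arrays, against 12.2 and 5.18 in control arrays.

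Exon-level probesets were tested in the same way. Of 296 HOX probesets, 109 were bright enough to be tested, and limma called 0 higher and 0 lower by the same rule, where 4.65% of all tested probesets were called, 1.33% higher and 3.33% lower. At an unadjusted p under 0.05 there were 16 of 109 (14.7%, 11 higher and 5 lower in knockdown), against 21.1% of all tested probesets. Without the filter 0 of 296 passed, against 0.0567% of all probesets, and 25 had an unadjusted p under 0.05, against 15% of all. Arrays of the groups did not overlap for 37.8% of the 296 HOX probesets, 50 above and 62 below the controls, against 45.1% of all probesets.

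By cluster, both knockdown arrays lay above the controls in 22 of 85 HOXB probesets and below in 16, and above in 4 of 78 HOXD probesets and below in 22. In HOXA the numbers were 16 above and 15 below of 88, and in HOXC 8 above and 9 below of 45. Among all probesets 17.7% lay above and 27.5% below, so that the share above was 25.9% in HOXB and 5.13% in HOXD, and the share below 18.8% in HOXB and 28.2% in HOXD. The 11 probesets higher at an unadjusted p under 0.05 comprised 4 of HOXA, 5 of HOXB and 2 of HOXC, and the 5 lower ones 1 of HOXA and 4 of HOXD. The median log2 difference over probesets was 0.05 in HOXB, 0.02 in HOXA, 0.01 in HOXC and -0.11 in HOXD, beside -0.05 for all probesets. It was 0.13, 0.10, 0.09 and -0.04 after centring, beside 0.03. These counts are a description, since probesets of a gene are not replicates.

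**Figure D3:**
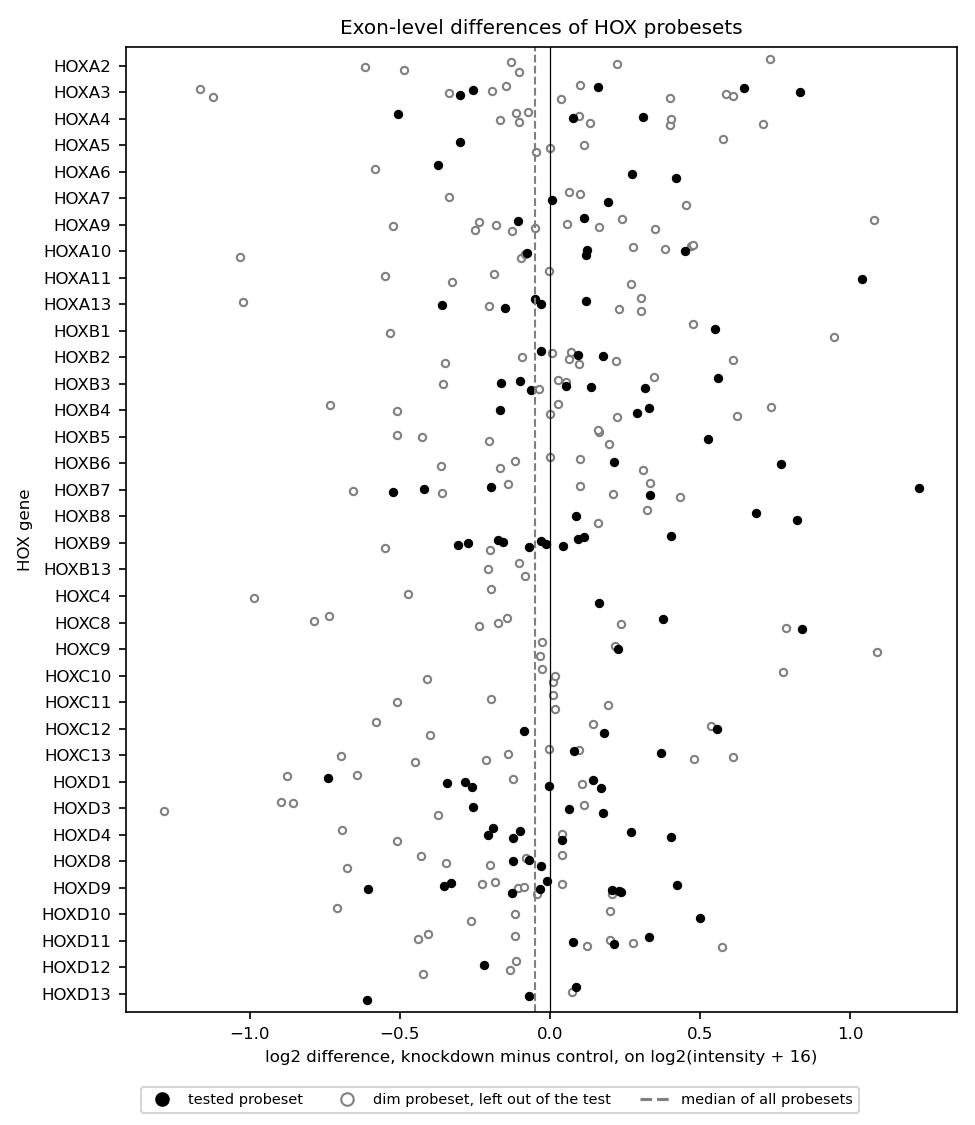
Log2 difference, knockdown minus control, on the log2(intensity + 16) scale (x axis) for each HOX probeset annotated to 1 gene, by gene (y axis), with filled points for tested and open points for dim probesets. The dashed line is the median of all probesets (-0.05), and the points of most genes lie on both sides of it, while 0 of the 109 tested probesets passed.

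The following probesets were chosen for mention after their values were seen, and counts per gene stand beside 17.7% above and 27.5% below among all probesets. HOXA11, which patterns the forearm and the uterus, had the smallest adjusted p of all HOX probesets. Its probeset 3042979 measured 242 and 353 in knockdown arrays, against 107 and 167 in control arrays (log2 difference 1.04 ± 0.28 (SE), adjusted p = 0.0762, limma). It passed after quantile normalization (adjusted p = 0.0455) and centring (adjusted p = 0.0415). The other 5 HOXA11 probesets were dim, and of these 1 lay above, 1 below and 3 across the controls.

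HOXB8 had 3 of 5 probesets with both knockdown arrays above the controls and 0 below. Its probeset 3761446 measured 1924 and 2714 in knockdown arrays, against 1709 and 1166 in control arrays (log2 difference 0.69 ± 0.21 (SE), adjusted p = 0.105, limma), and passed only without knockdown replicate 1 (adjusted p = 0.0371) among the fits that leave out an array. Its probeset 3761444 measured 129 and 134 in knockdown arrays, against 72.0 and 63.0 in control arrays (0.82 ± 0.29 (SE), adjusted p = 0.145). Both control values of 3761444 were below the exon-level dim limit, so that it entered the test only through the knockdown arrays.

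HOXA3, a gene of pharyngeal arch development, had probesets pointing both ways, 4 of 15 above and 3 below the controls. Probeset 3042791 measured 335 and 441 in knockdown arrays, against 229 and 251 in control arrays (log2 difference 0.65, adjusted p = 0.124, limma). HOXD1 had 6 of 11 probesets with both knockdown arrays below the controls and 1 above, and a median probeset difference of -0.26 on the log2 scale. Its probeset 2516977 measured 238 and 134 in knockdown arrays, against 384 and 248 in control arrays (adjusted p = 0.214). HOXD1 had no gene-level row of its own.

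Within a gene, probesets spanned wide ranges, and bright probesets stood beside dim ones. HOXB3, a hindbrain and blood progenitor gene, had 7 of 12 probesets above the limit in both groups. Its brightest (3761318) lay at 15864 and 16299 in knockdown arrays, against 15536 and 15451 in control arrays, while the median of its 12 probesets was 110 and 95.8 in knockdown arrays and 107 and 101 in control arrays. HOXA10, which acts in the uterus and in blood cells, had 4 of 11 probesets above the limit in both groups. Its brightest (3042963) measured 3652 and 4213 in knockdown arrays, against 3653 and 3542 in control arrays. HOXA9 had 2 of 13 probesets above the limit in both groups, the brightest at 2693 and 3350 in knockdown arrays, against 2970 and 2587 in control arrays. HOXA13, the paralog of HOXD13, had 6 of 10 above the limit in knockdown and 5 of 10 in control arrays. By contrast HOXC10, HOXC11, HOXB13 and HOXA2 had 0 tested probesets.

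Partners and regulators of HOX genes were read from the same gene-level fit. Of 80 listed genes, 52 had a row, 39 were tested, 1 was higher, 8 were lower and 30 did not pass. The median log2 difference of the tested genes was -0.13, beside -0.06 for all tested features, of which 21.4% were called. Of the TALE partners, 0 of 5 tested passed, with PBX3 at 159 and 195 in knockdown arrays and 143 and 205 in control arrays, and MEIS2 at 241 and 257 in knockdown arrays and 256 and 302 in control arrays. The noncoding RNA HOXB-AS3, the only cluster RNA with a row, measured 162 and 187 in knockdown arrays, against 160 and 214 in control arrays, and did not pass (adjusted p = 0.778, limma).

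Of 10 tested Polycomb genes, 2 fell and 0 rose, a share near the background of 15.4% of all tested features lower. EZH2, the histone methyltransferase of Polycomb complex PRC2, fell to 748 and 769 in knockdown arrays, against 1165 and 1238 in control arrays (log2 difference -0.65 ± 0.078 (SE), adjusted p = 0.00458, limma). CBX6, a chromodomain protein of the PRC1 complex, measured 715 and 774 in knockdown arrays, against 1067 and 1015 in control arrays (adjusted p = 0.0128), and lost its call without knockdown replicate 1 (0.0837) or 2 (0.0524). The PRC2 subunits EED and SUZ12 did not pass. Of 6 tested genes of the activating side 1 fell, again near that share. It was RBBP5, a core subunit of MLL complexes, at 676 and 700 in knockdown arrays, against 864 and 867 in control arrays (adjusted p = 0.0302). Leaving out any single array ended the call (0.0555 to 0.190), as did the fits without the filter (0.0533) and after centring (0.0655). KMT2A, the MLL methyltransferase gene, measured 657 and 621 in knockdown arrays and 546 and 751 in control arrays and did not pass.

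Of 6 tested retinoic acid genes 1 fell, also near the 15.4% of all tested features. ALDH1A3, which makes retinoic acid, the signal that activates HOX genes in the embryo, measured 88.3 and 71.1 in knockdown arrays, against 168 and 189 in control arrays (log2 difference -1.03 ± 0.14 (SE), adjusted p = 0.00707, limma). Only its control arrays were above the dim limit, so that it entered the test through them. It also passed without the filter (adjusted p = 0.0201, limma), but was not tested with the stricter filter or on exon-level medians. The receptor genes RARA and RARG did not pass. CYP26B1 of the same list was dim by its mean over the 4 arrays and was left out of the main test. It measured 78.9 and 69.0 in knockdown arrays, against 120 and 117 in control arrays, and passed without the filter (adjusted p = 0.0494, limma). Retinoic acid was not measured, and whether its signal differed between the groups was not tested. Of 4 tested genes of the CDX group, which also held GMNN and CTCF, 0 passed.

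Among 7 tested genes linked to HOX proteins by work in other cells, 4 fell and 1 rose, where 15.4% of all tested features were lower and 6% higher. The list was chosen with earlier results of these data known, so these counts cannot show an excess of changes among such genes. PLAU, the urokinase gene, fell to 2056 and 2068 in knockdown arrays, against 3325 and 3403 in control arrays (adjusted p = 0.00310, limma). CXCL8, the interleukin-8 gene, fell to 1444 and 1554 in knockdown arrays, against 2659 and 2711 in control arrays (adjusted p = 0.00234). VEGFA fell to 855 and 869 in knockdown arrays, against 1637 and 1600 in control arrays (adjusted p = 0.00162), and RHOC fell to 1966 and 1918 in knockdown arrays, against 2828 and 2694 in control arrays (adjusted p = 0.00784), with its call lost without knockdown replicate 2 (0.0524). The integrin β3 gene ITGB3 rose to 177 and 211 in knockdown arrays, against 130 and 132 in control arrays (adjusted p = 0.0347). It was named as the only gene of the list that rose, after its values were seen. The call ended on leaving out any single array (0.0700 to 0.236) and without the filter (0.0647). No HOX gene passed beside them, and whether these differences are related to HOX levels was not tested.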

How the data were processed

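RNA from 2 alpha3 knockdown and 2 control cultures was measured on 4 arrays, whose number limits the precision. Per the labels, the authors deposited PLIER intensity values from core-gene and core-exon runs of Affymetrix Expression Console, and the design text names the Exon Array Computational Tool. Background correction, normalization between arrays, versions and build: not given in the sources used here.

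Features were named through GEO's platform annotation, with symbols updated from RefSeq (GRCh38.p14). At the gene level 14448 rows had 1 symbol, 2392 several and 5171 none listed, and at the exon level 261481, 8947 and 16901. Rows with several symbols were tested but not named. Groups came from the labels. Nothing says that replicates were transduced separately, so p-values measure only the spread between these samples.

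Values were analysed as log2(value + 16), with no further scaling, which understates fold changes of dim features. After leaving out the lower 40% by mean, limma 3.58.1 in R 4.3.3 (lmFit, eBayes with trend, group alone, two-sided) was fitted over all features, and p-values were adjusted by Benjamini-Hochberg and called under 0.05. Alternatives were offsets of 1 and 64, other filters, no trend, quantile normalization, centring, a replicate block, leaving out each array and exon-level medians. The fit was tested on simulated data with normal noise. At the gene level it called 48 of 67 features changed 1.5-fold and 63 of 67 changed 2-fold. At the exon level it called 8 of 67 and 23 of 67, so that small exon-level changes can be missed. Fewer features were changed there than were called in the arrays, so these shares need not hold for the arrays. The rule for full values took called HOX genes, the brightest of each cluster, up to 4 HOX genes called by probesets alone and up to 8 called partners or regulators. Other genes were named after their values were seen. Members and lists were chosen with earlier results of these data known.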

Additional observations from a re-analysis of the deposited data

How the results depend on the processing

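The absence of HOX calls at the gene level held under the other offsets, no filter, the stricter filter, no trend, exon-level medians and the fits without 1 array. The stricter filter left 5 HOX genes tested, and exon-level medians 8. HOXC12 was not tested on exon-level medians, so it could not be called there. Quantile normalization, centring and the replicate block each called 1 HOX gene higher, HOXC12 (log2 difference 0.36, 0.39 and 0.30), and 0 lower. At the exon level 1 HOX probeset was called higher after quantile normalization and 1 after centring (HOXA11 in both), and 0 to 1 higher and 0 lower without 1 array. With the replicate numbers as a block, 9 HOX probesets were higher and 5 lower, among them those named of HOXA11 (adjusted p = 0.00119, limma), HOXB8 (3761446, 0.00246), HOXD13 (0.00891), HOXD1 (0.0128) and HOXA3 (0.0184), while calls over all probesets numbered 29131 with the block and 8022 without it. Deviations of same-numbered arrays correlated at r = 0.19 over gene-level features, and with 2 pairs and no label that a number marks a shared batch the arrays were not taken as paired. The HOXB9 difference changed sign on exon-level medians (0.0687), and that of HOXD13 on exon-level medians (0.009) and without knockdown replicate 2, with a range of -0.2982 to 0.0371 over the fits without 1 array; neither passed in any fit. HOXD3 moved with the offset, to -1.0048 at 1 and -0.42 at 64. Above the dim limit in control arrays, HOXB had 1 gene at the 60th percentile, and counting a gene by whether most of its probesets, or as many as not, were above the limit, HOXA had 2 genes and HOXC 0. Partners and regulators called higher numbered 0 without the filter, with the stricter filter, on exon-level medians and without any 1 array (0 to 0), and those called lower 5 to 7 without 1 array. The cause of these shifts was not tested. ITGB3, the gene called higher in the main fit, was not tested with the stricter filter or on exon-level medians. With 1 array left in a group, its spread is assumed to equal that of the other group. Over all gene-level features, 485 were higher and 1511 lower without the filter, 1332 and 2770 with the block, and 169 to 892 higher and 671 to 1918 lower without 1 array. Exon-level calls over all probesets fell to 163 without the filter and to between 3028 and 5385 without 1 array. Signal over background limits the dim rows, which make up 15 of the 22 HOX genes.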
